A study of Homo sapiens with 27 samples.

Results

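The cytosolic ribosomal protein genes encode the proteins of the ribosomes that work outside mitochondria. They were taken as the protein-coding rows of the count table whose symbol is RPL or RPS followed by a digit, or RPLP0, RPLP1, RPLP2 or RPSA. Of 97 rows with such a name, 9 kinases of the RPS6K family and 3 pseudogene or non-coding rows were left out, so that 85 of 14008 genes remained. They comprised 43 genes of the large subunit, 31 of the small subunit, the 3 stalk genes, 6 paralogs (RPL7L1, RPL22L1, RPL26L1, RPL36AL, RPL39L and RPS27L) and 2 rows that encode no separate ribosomal protein. Those 2 were RPS19BP1, whose product binds RPS19, and RPS10-NUDT3, a read-through that overlaps RPS10. The annotated 3' end of RPS10-NUDT3 lies beyond that of RPS10, at 34284887 against 34417454 on the minus strand of chromosome 6. The members lay on 21 chromosomes.

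Messenger RNA of teloHAEC cells, endothelium of the human aorta made immortal, was counted by 3' end sequencing. In every group a Cas9 ribonucleoprotein was electroporated into 150000 cells per replicate, and cells were collected 2 days later. Set A held 4 libraries in which a putative SMAD3 enhancer was deleted (SMAD3 acts in the nucleus downstream of TGF-beta receptors), 4 with a guide against HPRT, the positive control, and 4 with a non-targeting guide, the negative control. Set B held 4 libraries in which a putative enhancer of LDAH (C2orf43), a hydrolase found on lipid droplets, was deleted, 4 HPRT-targeted libraries and 7 negative control libraries. The sample titles name the set for the control libraries only, not for the deletion libraries. Each enhancer was targeted with flanking guides, and the labels name no selection of cut cells before RNA was extracted. The labels do not say whether replicates came from separate cultures, so the p-values reflect variation among these samples only, which may be technical.

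Outside the stalk, a ribosome holds a single copy of each of its proteins, and their messenger RNAs are among the most abundant of a growing cell. Most of these RNAs begin with a tract of pyrimidines, the 5' terminal oligopyrimidine or TOP motif, through which mTORC1 and LARP1 set their translation and stability together. Surplus RPL5 and RPL11 bind MDM2 and so stabilise p53, which links ribosome assembly to p53. RPS27L, a paralog of RPS27, is itself a known target of p53.

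The starts of 9 members are shown because the comparisons below turn on these paralogs and partners, on RPS12, which differed between the sets, and on RPLP0, which was high in libraries that stood apart from their set. Each line holds 30 bases of the gene's strand, 15 before the annotated start and 15 from it on, and the capitals mark the longest run of pyrimidines that touches the 10 bases on either side of the start. Sequences and starts are those of RefSeq on GRCh38.p14.
RPS27L: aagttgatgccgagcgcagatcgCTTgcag
RPS27: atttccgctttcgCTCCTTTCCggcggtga
RPL22L1: cgcggccgtagCTTCCTCTCTgctctcgcg
RPL22: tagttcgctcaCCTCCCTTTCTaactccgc
RPL36AL: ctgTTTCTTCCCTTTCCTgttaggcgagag
RPL36A: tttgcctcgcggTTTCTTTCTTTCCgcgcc
RPL7L1: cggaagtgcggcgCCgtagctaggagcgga
RPS12: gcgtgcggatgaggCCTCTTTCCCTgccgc
RPLP0: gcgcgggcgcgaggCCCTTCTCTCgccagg

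The windows lie at chr15:63157463-63157492 for RPS27L on the minus strand and chr1:153990747-153990776 for RPS27 on the plus strand. RPL22L1 starts at chr3:170870181-170870210 and RPL22 at chr1:6199581-6199610, both on the minus strand. RPL36AL starts at chr14:49620612-49620641 on the minus strand and RPL36A at chrX:101390996-101391025 on the plus strand. RPL7L1 lies at chr6:42879601-42879630 and RPS12 at chr6:132814554-132814583, both on the plus strand, and RPLP0 at chr12:120201097-120201126 on the minus strand. The run was 3 bases long in RPS27L and 2 in RPL7L1, against 9 in RPS27, 10 in RPL22L1, 11 in RPL22, 15 in RPL36AL, 13 in RPL36A, 11 in RPS12 and 10 in RPLP0.

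A promoter was matched by symbol for 67 of the 85 members. Those with no entry included RPL23, RPL23A, RPL30, RPL39L, RPS10-NUDT3 and RPS19BP1. A run of at least 8 pyrimidines touched the 10 bases around the start in 53 of the 67, or 79.1%, against 15.6% of all 35116 promoters. Among the subunit and stalk genes 51 of 62 had one, and among the matched paralogs 2 of 5. Annotated starts need not be the starts used in these cells, so a missing run says only that these letters are not near that start. In the 300 bases around each start, on both strands, CCGGAAG, the core of an ETS site, was found in 34.3% of the matched members and 10.3% of all promoters. GATGGC, the core of a YY1 site, was found in 26.9% of members and 12.9% of all promoters, and TATAAA in 8.96% of members and 11.5% of all promoters. The reverse complement of CCGGAAG opens with pyrimidines and can overlap a counted run.

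Total counts per library ranged between 3430481 and 7752413, and a count of 0 allowed up to 0.387 to 0.875 CPM, counts scaled to a common library size, taking 3 counts of the total and covering counting error only. No member was at 0: the lowest count was 26, for RPL39L. A group of 7 libraries stood apart from the rest of their set in the correlation of log2 CPM over genes other than the members. They were SMAD3 deletion replicate 4, HPRT-targeted replicate 3 of set A, LDAH deletion replicate 4, HPRT-targeted replicates 2 and 4 of set B and negative control replicates 6 and 7 of set B. All 10 endothelial markers of the list were in the table, with a summed level of 1028 to 2163 CPM, although VWF lay between 0 and 6.71 CPM. Of the smooth muscle, epithelial, blood and fibroblast markers, ACTA2 (14.0 to 51.3 CPM), CD68 (2.05 to 14.5 CPM) and PDGFRA (0 to 2.67 CPM) had a row and no other did. The target genes were not called in any comparison: log2 fold changes were -0.44 ± 0.14 (SE) for SMAD3 after its enhancer deletion, -0.76 ± 0.40 for LDAH after its own, and -0.28 ± 0.19 for HPRT1 over both sets of HPRT targeting, each against the negative control, with adjusted p-values of 0.702, 1.0 and 0.937 (edgeR).

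The members were among the most highly counted genes of these cells. In the 11 negative control libraries 44 of the 85 ranked within the 100 highest genes and 80 within the 500 highest by mean CPM, with CPM scaled by the trimmed mean of M values (TMM), as everywhere here. Libraries made from 3' ends hold about 1 fragment per transcript, so levels of different genes can be set side by side without dividing by length, within the limits of how well each 3' end is captured. RPL41, which encodes the smallest ribosomal protein, was the highest member at 5869 CPM and the 4th gene of the whole table. RPS29 (3747 CPM), RPS27A (3391 CPM), which is made as a fusion to ubiquitin, and RPL37A (3099 CPM) were also among the highest.

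The 7 lowest members were 5 of the 6 paralogs and the 2 rows that encode no separate ribosomal protein, while RPS27L averaged 626 CPM. RPL39L, a paralog of the exit tunnel protein RPL39, averaged 10.1 CPM, RPL26L1 56.5 CPM, RPS19BP1 59.6 CPM, RPL7L1 198 CPM and RPS10-NUDT3 240 CPM. The lowest gene of the subunits proper was RPS9 at 382 CPM, so the 77 subunit and stalk genes spanned 382 to 5869 CPM. The median was 1386 CPM for the large subunit, 1452 CPM for the small subunit and 269 CPM for the paralogs. Reads that a member shares with a processed pseudogene or a near-identical paralog could have been assigned to either by the authors' counting, which limits comparisons of level between members more than comparisons of one member between libraries.

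Together the members took between 9.37% and 17.4% of the counts of a library. The shares were 13.7%, 11.8%, 12% and 16.5% in SMAD3 deletion libraries, 14.6%, 13.8%, 15.4% and 13.4% in HPRT-targeted libraries of set A, and 13.4%, 13.3%, 12.9% and 14.1% in the negative controls of set A. In set B they were 10.5%, 10.5%, 9.37% and 17.4% in LDAH deletion libraries and 10.7%, 14.97%, 11% and 17.3% in HPRT-targeted libraries. The 7 negative controls of set B had a lowest share of 10.35%, a median of 11% and a highest of 15.8%. The groups of a set overlapped, and the highest share of each cut group came from a library that stood apart.

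The group means were 13.5% ± 2.19 (SD, n = 4) with SMAD3 deletion, 14.3% ± 0.88 (n = 4) with HPRT targeting and 13.4% ± 0.50 (n = 4) among the set A negative controls. They were 11.9% ± 3.68 (n = 4) with LDAH deletion, 13.5% ± 3.21 (n = 4) with HPRT targeting and 12.1% ± 2.38 (n = 7) among the set B negative controls. No difference of group means within a set exceeded the largest SD of the groups compared. Without the libraries that stood apart the means were 12.5% with SMAD3 deletion, 13.9% with HPRT targeting and 13.4% in the negative control of set A, and 10.1% with LDAH deletion, 10.8% with HPRT targeting and 10.8% in the set B controls. The ratio of large to small subunit counts varied less than the share itself, with means of 1.21 ± 0.04 (SD) with SMAD3 deletion and 1.203 ± 0.02 with HPRT targeting against 1.22 ± 0.01 in the negative control of set A, and 1.25 ± 0.04 with LDAH deletion and 1.295 ± 0.07 with HPRT targeting against 1.29 ± 0.03 in the negative control of set B.

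**Figure D1:**
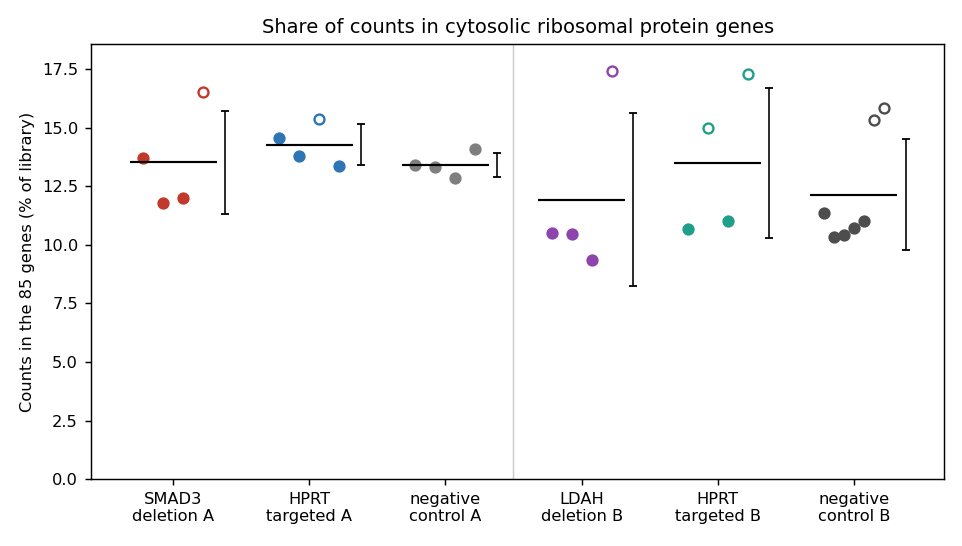
Percent of each library's counts that fell in the 85 ribosomal protein genes (vertical axis), by group; points are libraries, open where the library stood apart, lines are group means and bars 1 SD. The open points lie between 14.97% and 17.39% and above every filled point, the highest of which is 14.6%.

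The 7 libraries that stood apart, which were chosen on other genes, held the 7 highest shares. In set B the 5 such libraries had 14.97% to 17.39% of counts in members, against 9.37% to 11.4% in the other 10. In set A the 2 such libraries had 15.4% and 16.5%, against 11.8% to 14.6% in the other 10. The values below describe samples grouped from the data and carry no test.

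On the TMM scale 61 of 85 members were higher in all 5 libraries of set B that stood apart than in any of the other 10, which was true of 6.7% of all 11769 genes tested there. In set A 38 members were higher in both such libraries than in the other 10, against 12.7% of all genes, and 35 of these 38 were among the 61 of set B. RPS18, a protein of the small subunit head, averaged 3457 CPM in the 5 libraries and 1463 CPM in the other 10. RPL39, of the peptide exit tunnel, averaged 2769 CPM and 1256 CPM, and RPLP0, the base of the stalk, 3322 CPM and 1565 CPM. RPS14 had 2526 CPM and 1217 CPM in the same order. The median member was 0.61 higher on the log2 scale in set B and 0.26 higher in set A.

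Members did not all go that way. RPL7L1 was lower in every library that stood apart, with 46.4 to 90.1 CPM against 227 to 310 CPM in the other 10 of set B, and 43.3 and 104 CPM against 160 to 222 CPM in set A. RPL22, which mice can live without, had 598 to 783 CPM in the 5 libraries of set B and 866 to 977 CPM in the other 10. RPLP2, a stalk protein, averaged 1172 and 1293 CPM, and RPL6 2227 and 2420 CPM, with overlap. Mitochondrially encoded genes took 0.76% to 1.18% of counts in the 5 libraries and 1.07% to 1.98% in the other 10 of set B, and mitochondrial ribosomal protein genes 0.72% to 0.82% against 0.51% to 0.57%. The part of either in the member levels was not tested.

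**Figure D2:**
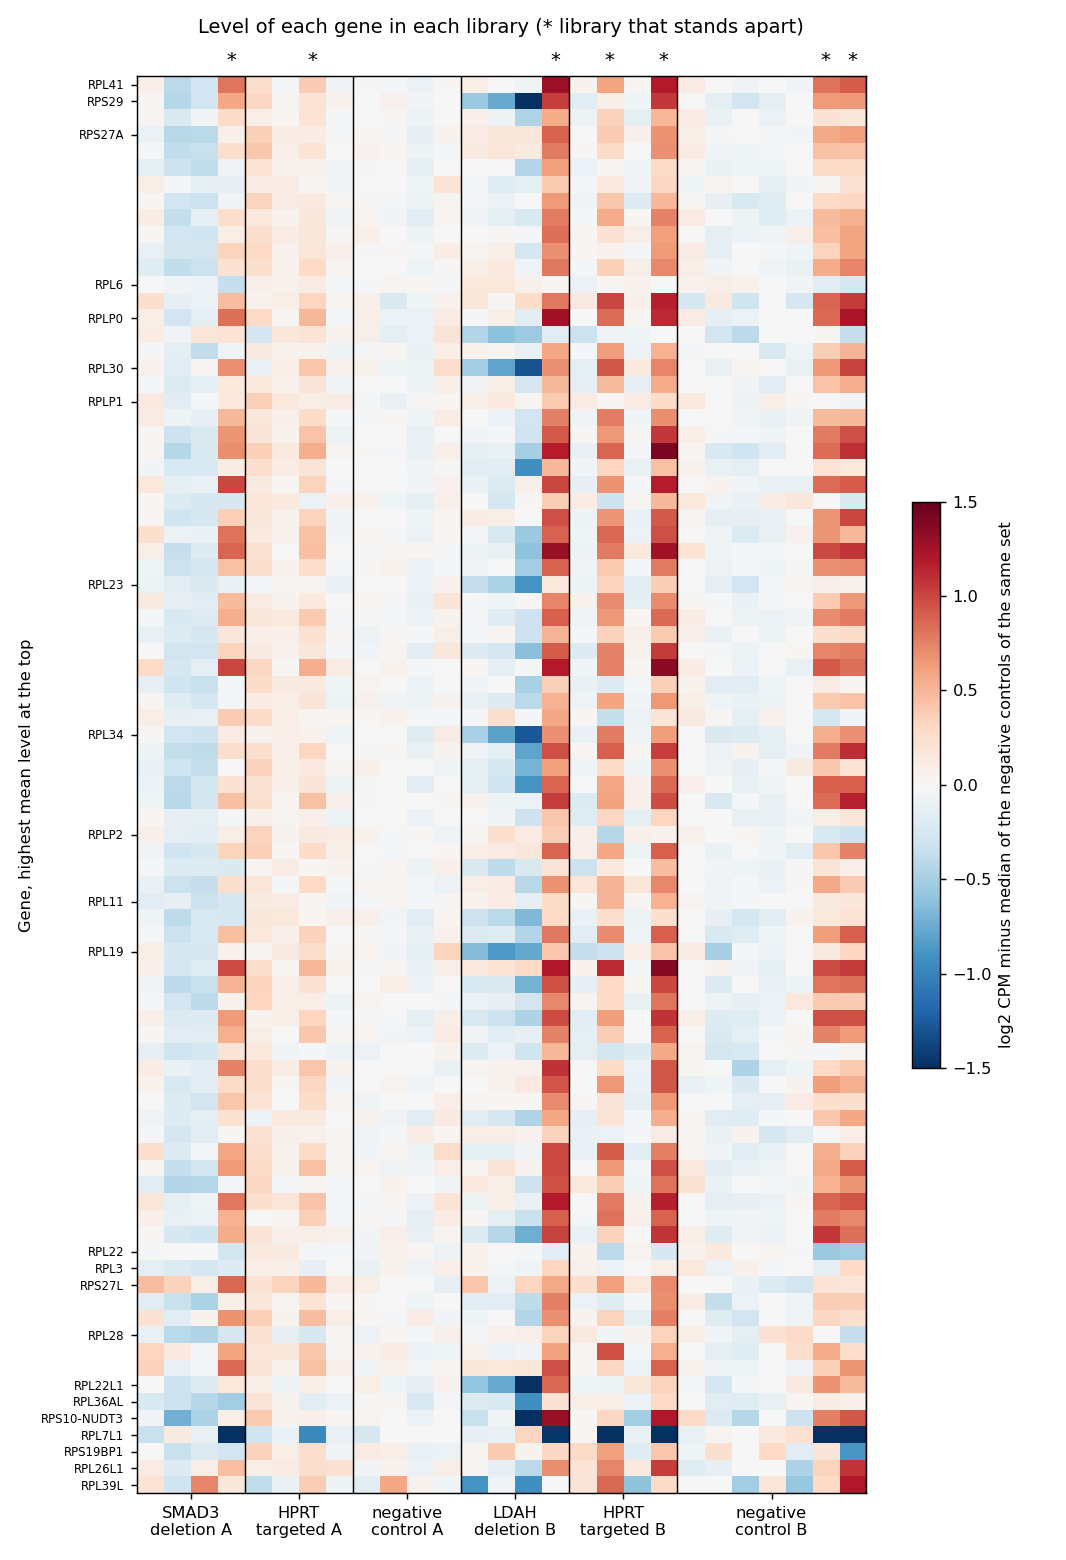
Level of each of the 85 genes (rows, highest mean level at the top, with some rows named) in each of the 27 libraries (columns, by group), as log2 CPM minus the median of the negative controls of the same set; red is higher, blue lower, values past the ends of the colour bar take its end colours, and asterisks mark the libraries that stood apart. The marked columns are red in most rows, with RPL7L1 blue in each of them.

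The spread of single genes was also read relative to the summed member counts. Over the libraries of set A the SD of log2 share of the member sum had a median of 0.12 among members, against 0.19 over those of set B. RPS3A (0.04), RPL35 (0.05), RPS7 (0.05) and RPL5 (0.06) varied least in set A, and RPS6 (0.06), RPL36 (0.08), RPS25 (0.09) and RPL17 (0.09) in set B. The counting SD, the spread from counting error alone, was lower still, at 0.013 for RPS3A in set A and 0.012 for RPS6 in set B. RPS3A, RPS6 and RPS7 are small subunit proteins, and RPS6 is the substrate of the S6 kinases.

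RPL7L1 (0.78), RPL39L (0.41), RPL36AL (0.24) and RPS27L (0.24) varied most in set A. In set B these were RPL7L1 (1.29), RPS10-NUDT3 (0.62), RPL22 (0.52) and RPL22L1 (0.50). The counting SD was 0.23 for RPL39L in set A and below 0.05 for the other 6 of these genes in the set named. Without the libraries that stood apart RPL7L1 had an SD of 0.25 over set A, against 0.21 over set B. In set B RPL22 then had 0.08, RPL22L1 0.58 and RPS10-NUDT3 0.65.

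The differences between SMAD3 deletion and the negative control were small in the members. None of the 85 passed adjustment against the negative control, as for 0.0% of the 11467 genes tested, by the quasi-likelihood test of edgeR, with Benjamini-Hochberg adjusted p-values. DESeq2 and limma voom with sample weights called no member either, and 14 and 2 genes in all. Of the members 38 had a log2 fold change above 0 and 47 below, with a median of -0.02 that compares with 0.00 for all genes. The tally depended on how the libraries were weighed: 15 of 85 lay above 0 with limma voom and sample weights, and 11 of 85 without the libraries that stood apart. At an unadjusted p under 0.05 there were 4 members, or 4.71%, beside 6.78% of all genes, and 25 with limma voom. Without 1 library that number was 2 to 17, with 17 without replicate 4 of the deletion, 8 without its replicate 2 and 2 without control 2.

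RPS27L was the member with the smallest p. It had 493, 452, 380 and 649 CPM in SMAD3 deletion libraries, against 381, 359, 355 and 327 CPM in the negative control. Deletion replicate 3 lay within the controls and the other 3 above them. The log2 fold change was 0.49 ± 0.15, with an adjusted p of 0.702. RPS26 (0.28 ± 0.13) and RPS9 came next among those above 0, neither at an unadjusted p under 0.05.

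RPL36AL, a paralog of RPL36A, had 440, 411, 382 and 358 CPM in SMAD3 deletion libraries, against 522, 520, 441 and 508 CPM in the negative control. Every deletion library lay below every control, and the log2 fold change was -0.31 ± 0.11 (adjusted p 0.702). RPL11 had 1260, 1282, 1125 and 1176 CPM with the deletion, against 1388, 1441, 1389 and 1414 CPM in the negative control, again without overlap (log2 fold change -0.21 ± 0.08, adjusted p 0.73). RPL28 (-0.28 ± 0.12) and RPL3 (-0.19 ± 0.09), which shapes the peptidyl transferase centre, came next by p among the members below 0.

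Against the HPRT-targeted libraries, which were also cut by Cas9, SMAD3 deletion gave values below 0 for 67 of the 85 members, with a median of -0.12 and 0.01 for all genes. No member and 0.0% of genes passed adjustment in edgeR, while 20 members, or 23.5%, had an unadjusted p under 0.05, beside 5.83% of all genes. All 20 were lower with the deletion, and 2.88% of all genes were lower at that threshold. The members were read in the same libraries, so their agreement is not repeated evidence. The 20 became 9 without replicate 2 or 3 of the deletion or replicate 1 of HPRT targeting, and 50 without replicate 4 of the deletion. DESeq2 and limma voom called no member, and 17 and 5 genes in all.

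RPL4, a large subunit protein that lines the exit tunnel, had 1404, 1125, 1247 and 1229 CPM with SMAD3 deletion, against 1642, 1638, 1493 and 1538 CPM with HPRT targeting. These did not overlap, and the log2 fold change was -0.32 ± 0.09 (adjusted p 0.746). RPL36AL (-0.36 ± 0.11), RPL13 (-0.32 ± 0.10) and RPL11 (-0.26 ± 0.08) followed. RPS27L (0.19), RPL39L (0.30), RPS3 and RPS9 were the members above 0 with the smallest p, none at an unadjusted p under 0.05. The 2 comparisons share the SMAD3 deletion libraries.

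These values depended on replicate 4 of the deletion, which stood apart: without it alone the median was -0.13 against the negative control and -0.24 against HPRT targeting. Without it and replicate 3 of HPRT targeting, the other library of set A that stood apart, the median was -0.15 against the negative control, with 26 members lower at an unadjusted p under 0.05, beside 5.35% of all genes, and none called. Against HPRT targeting the median was then -0.22, with 47 members lower at that threshold, beside 7.62% of all genes. One member, RPS20, was called (log2 fold change -0.40 ± 0.08, adjusted p 0.0366), beside 0.475% of all genes. Its levels were 2494, 2195 and 2266 CPM in the deletion libraries kept, against 3356, 2973 and 2910 CPM in the HPRT-targeted libraries kept.

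**Figure D3:**
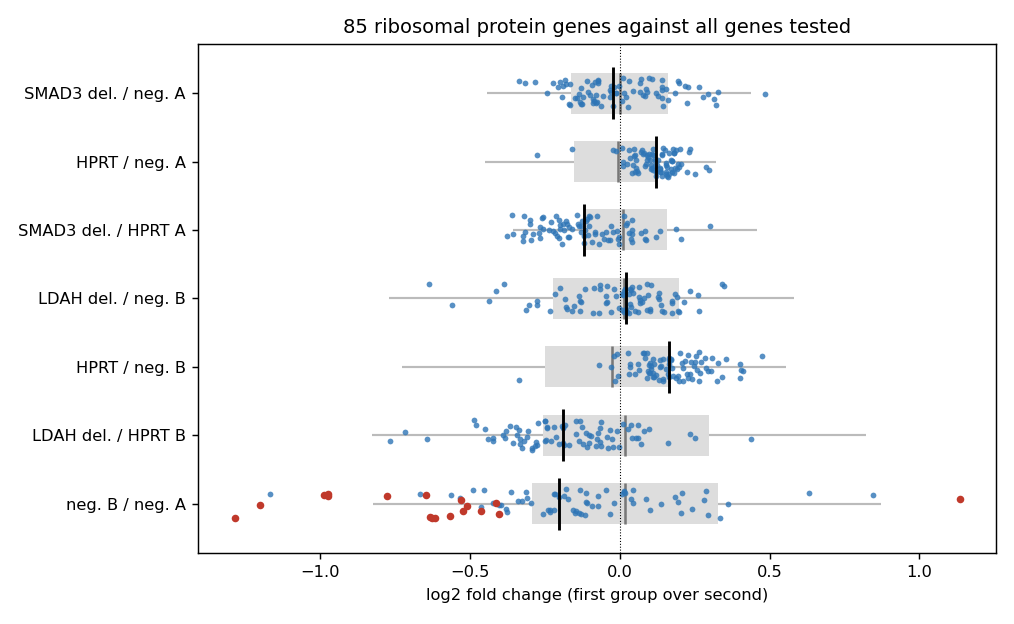
Log2 fold change of the 85 members (points, red where called at an adjusted p under 0.05) in 7 comparisons, each the first group over the second; grey bars span the quartiles of all genes tested, grey lines the 5th to 95th percentile, and black lines mark the median member. The black line lies right of 0 in both HPRT comparisons with the negative control, left of 0 where a deletion is set against HPRT targeting, and red points occur only for set B against set A.

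For LDAH enhancer deletion no member passed adjustment against the negative control in the fit of all libraries, as for 0.0% of 11769 genes (edgeR). DESeq2 called 14 genes and limma voom 0, with no member in either. The median member had a log2 fold change of 0.02, and 50 of 85 lay above 0. At an unadjusted p under 0.05 there were 2 members, or 2.35%, beside 4.61% of all genes. That number was 15 without replicate 4 of the deletion and 0 to 2 without any other 1 library, and 24 without the libraries that stood apart, beside 12.8% of all genes. The 2 were RPL23A, which lies at the mouth of the exit tunnel, at -0.30 ± 0.14 and RPS27L at 0.34 ± 0.16, both with an adjusted p of 1.0.

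RPL23 (-0.31 ± 0.18), RPL30 (-0.56 ± 0.34) and RPL39L (-0.64 ± 0.39) were the next lowest by p, and RPLP2 (0.26 ± 0.13), RPL12, which binds at the stalk base, (0.20 ± 0.12) and RPS28 (0.24 ± 0.15) the next highest. Against HPRT targeting the median was -0.19, and 71 of the members lay below 0. None passed there, beside 0.0% of genes, and 2 members, RPL23 (-0.49 ± 0.20) and RPL23A (-0.33 ± 0.15), had an unadjusted p under 0.05, beside 4.22% of all genes. That number was 32 without replicate 4 of the deletion, 4 without replicate 1 of HPRT targeting and 0 or 1 without any other 1 library, and 17 without the libraries that stood apart, beside 10.4% of all genes. RPL30 (-0.77 ± 0.38) and RPL34 (-0.64 ± 0.36) followed, while RPLP2, RPS28, RPL12 and RPL6 were the members above 0 with the smallest p. DESeq2 and limma voom called no gene in that comparison. Here too the members share their libraries, so the number below 0 is not repeated evidence.

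The LDAH deletion libraries disagreed among themselves. RPL30, a large subunit protein, had 1195, 985 and 688 CPM in replicates 1 to 3 and 2739 CPM in replicate 4, which stood apart. In the negative control it had a lowest value of 1576 CPM, a median of 1707 CPM and a highest of 3458 CPM. HPRT-targeted libraries had 1537, 3261, 1894 and 2841 CPM. Replicates 1 to 3 of the deletion thus lay below every HPRT-targeted and negative control library, and replicate 4 lay among the controls that stood apart. Without replicate 4 alone the median member had a log2 fold change of -0.23 against the negative control and -0.47 against HPRT targeting, and no member was called. Without replicate 4 of HPRT targeting the median of the second comparison was 0.01.

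Without the 5 libraries of set B that stood apart, 7 members were called against the negative control, all lower, beside 1.74% of all genes in either direction. They were RPL30 (log2 fold change -0.81 ± 0.13, adjusted p 0.00154), RPL34 (-0.72 ± 0.13), RPS29 (-0.80 ± 0.14), RPL19 (-0.69 ± 0.12), RPL22L1 (-0.97 ± 0.20), RPL23 (-0.49 ± 0.11) and RPL23A (-0.42 ± 0.10), the last with an adjusted p of 0.0302. RPL19 was named after its values were seen, and so were RPL34, RPS29 and RPL22L1 for this comparison. Against HPRT targeting 5 members were called without these libraries, RPL30, RPL34, RPS29, RPL19 and RPL22L1, all lower, beside 0.634% of all genes. Only 2 HPRT-targeted libraries of set B remained in that fit. The 5 libraries left out held the highest member shares of set B. Without them the SD of the LDAH deletion share was 0.64, beside 3.68 with all libraries. The p-values of these fits take no account of that choice of libraries and may understate the spread.

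The libraries kept show the spread behind these calls. RPS29 had 2164, 1891 and 1077 CPM with LDAH deletion, against 2831 and 3042 CPM with HPRT targeting and 2640 to 3187 CPM in the 5 negative controls kept. RPL34 had 767, 619 and 446 CPM with LDAH deletion, against 1008 and 1040 CPM with HPRT targeting and 927 to 1082 CPM in the negative control. RPL22L1 had 187, 165 and 70.8 CPM with LDAH deletion, against 266 and 315 CPM with HPRT targeting and 233 to 306 CPM in the negative control. These 3 genes were taken from the calls of the same fit, so their separation is not further evidence. The share of all genes separated in this way is not given. None of the 3 genes overlapped with the controls kept, and replicate 3 of the deletion was the lowest library in each. RPL19 was different in that replicate 2 was lowest, with 615, 530 and 566 CPM with LDAH deletion, against 760 and 1038 CPM with HPRT targeting and 685 to 1041 CPM in the negative control.

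With HPRT targeting nearly every member had a value slightly above 0 when all libraries were fitted, and none was called. In set A 81 of 85 members lay above 0 (median 0.12 on the log2 scale) and in set B 78 of 85 (median 0.17), while the medians of all genes were 0.00 and -0.02. No member was called in set A, set B or both sets together, beside 0.0% of 11467, 11769 and 11836 genes (edgeR), and none by DESeq2 or limma voom. Members with an unadjusted p under 0.05 numbered 0 in set A, 1 in set B and 4 over both sets, beside 2.24%, 1.75% and 3.19% of all genes. Without 1 library these numbers were 0 in set A, 1 to 3 in set B and 1 to 14 over both sets, the last with 13 or 14 without replicate 1 or 3 of HPRT targeting or control 7 of set B. All subunit classes were alike in this: over both sets 42 of 43 large subunit genes, 31 of 31 small subunit genes and 3 of 3 stalk genes lay above 0. The genes and classes were read in the same libraries, so their agreement is not repeated evidence. DESeq2 called 1, 0 and 1 genes in all in these comparisons and limma voom 0, 0 and 6.

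Over both sets the 4 members included RPS27L (log2 fold change 0.39 ± 0.09), RPLP1 of the stalk (0.15 ± 0.06) and RPL29 (0.25 ± 0.11), each with an adjusted p of 0.937. RPLP1 had 2676, 2324, 2217 and 2269 CPM with HPRT targeting in set A, against 2059, 1936, 2123 and 2131 CPM in the negative control, with no overlap. In set B it had 2140, 2006, 2134 and 2383 CPM with HPRT targeting, against a lowest of 1871, a median of 1967 and a highest of 2170 CPM in the negative control, with overlap. In set A alone RPLP1 (0.20 ± 0.10), RPLP2 (0.16 ± 0.10) and RPL13A (0.16 ± 0.10) followed RPS27L by p, and in set B RPL11 (0.26 ± 0.14) and RPS19BP1 (0.32 ± 0.21).

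The members below 0 were few. RPL7L1 had -0.28 ± 0.34 on the log2 scale in set A, against -0.34 ± 0.51 in set B. Over both sets RPL7L1 (-0.31 ± 0.32), RPL22L1 (-0.03 ± 0.11), RPL3 (-0.02 ± 0.07) and RPL39L (-0.03 ± 0.25) were the 4 below 0. RPL39L, RPL28 and RPL23 were below 0 in set A, and RPL3, RPL22L1 and RPL22 were among the 7 below 0 in set B. In set B the small excess rested on replicate 4: without it the median was -0.01. Without all libraries that stood apart the median was 0.09 in set A, 0.01 in set B and 0.05 over both, and 80, 48 and 71 of 85 members lay above 0 in set A, in set B and over both.

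RPS27L stood first among the members above 0, by p, in each comparison of a cut group with its negative control. In HPRT-targeted libraries it had 416, 450, 499 and 389 CPM in set A, against 381, 359, 355 and 327 CPM in the negative control. All 4 lay above all controls, with a log2 fold change of 0.30 ± 0.15. In set B it had 1055, 752, 990 and 1171 CPM with LDAH deletion and 945, 1212, 881 and 1296 CPM with HPRT targeting, against a lowest of 653, a median of 790 and a highest of 914 CPM in the negative control. The deletion and HPRT-targeted libraries overlapped with the control there, and log2 fold changes were 0.34 ± 0.16 and 0.47 ± 0.16. The 2 comparisons of a set share its negative controls. The gene ranked 4th of 11836 genes by p over both sets of HPRT targeting, at an unadjusted p of 0.000422 and an adjusted p of 0.937. Over the alternatives of that comparison its adjusted p lay between 0.147 and 1.0, and its log2 fold change between 0.27 and 0.43.

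The ratio of RPS27L to RPS27 counts was highest with SMAD3 deletion among the groups of set A. It was 0.86 to 0.99 in the 4 SMAD3 deletion libraries, 0.60 to 0.71 in the HPRT-targeted libraries and 0.53 to 0.61 in the negative control, so the deletion overlapped with neither while the other groups overlapped each other. In set B it was 1.19 to 2.21 with LDAH deletion, 1.37 to 2.35 with HPRT targeting and 1.17 to 1.74 in the negative control, and the groups overlapped. RPS27 itself had 550, 486, 441 and 653 CPM with SMAD3 deletion, against 620, 614, 586 and 614 CPM in the negative control.

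Genes from a list drawn up for the route by which ribosomal proteins reach p53 were read beside it. Whether that route had a part in their levels was not tested. MDM2, the ubiquitin ligase that RPL5 and RPL11 bind, had 234, 196, 166 and 222 CPM with SMAD3 deletion and 234, 175, 192 and 174 CPM with HPRT targeting, against 194, 131, 122 and 139 CPM in the negative control of set A. In set B it had 291, 208, 242 and 238 CPM with LDAH deletion and 223, 219, 224 and 287 CPM with HPRT targeting, against a lowest of 122, a median of 143 and a highest of 204 CPM in the negative control. Both cut groups of set B lay above all 7 controls, and those of set A overlapped with 1 control. Log2 fold changes against the negative control were 0.49 ± 0.16 with SMAD3 deletion, 0.39 ± 0.16 with HPRT targeting in set A, 0.68 ± 0.16 with LDAH deletion and 0.64 ± 0.16 with HPRT targeting in set B, with adjusted p-values from 0.693 to 0.999. CDKN1A, the cell cycle inhibitor that p53 induces, had 0.45 ± 0.19, 0.60 ± 0.19, 0.54 ± 0.22 and 0.44 ± 0.23 in the same comparisons. Of the 6 genes of that list in the table, these 2 were above 0 at an unadjusted p under 0.05 in the first 3 comparisons and MDM2 alone in the last, and none was called.

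**Figure D4:**
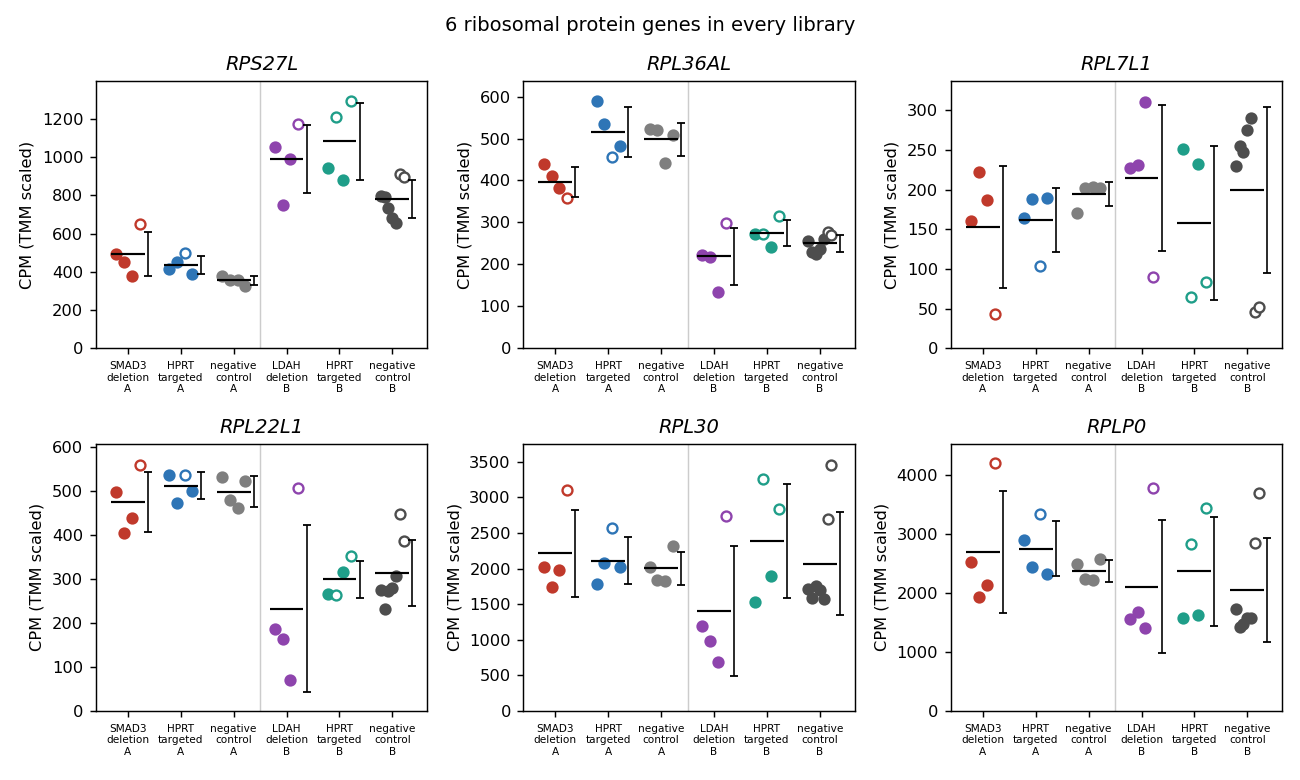
CPM after TMM scaling (vertical axes) of 6 members in every library, by group; points are libraries, open where the library stood apart, lines are means and bars 1 SD. RPS27L is higher in set B, RPL7L1 is low in each open point, and the filled LDAH deletion points of RPL22L1 and RPL30 lie below those of the other groups of set B.

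Ratios of the other paralogs to their partners overlapped between cut and control libraries when all libraries were read. The ratio of RPL22L1 to RPL22 averaged 0.56 ± 0.13 with SMAD3 deletion and 0.54 ± 0.05 with HPRT targeting, against 0.55 ± 0.06 in the negative control of set A. It was 0.28 ± 0.25 with LDAH deletion and 0.38 ± 0.08 with HPRT targeting, against 0.41 ± 0.19 in the negative control of set B. Among libraries of set B that did not stand apart it was 0.08 to 0.20 with LDAH deletion and 0.29 to 0.35 with HPRT targeting, against 0.24 to 0.35 in the negative control, without overlap of the deletion. In mice the RPL22 protein represses RPL22L1. RPL36AL to RPL36A averaged 0.41, 0.41 and 0.42 in set A and 0.30, 0.37 and 0.37 in set B for deletion, HPRT targeting and negative control. Among libraries of set B that did not stand apart it was 0.28 to 0.34 with LDAH deletion and 0.41 to 0.42 with HPRT targeting, against 0.37 to 0.45 in the negative control. RPL26L1 to RPL26 lay between 0.02 and 0.05 in every library, and RPL39L to RPL39 between 0.003 and 0.01. RPL7L1 to RPL7 ranged from 0.02 to 0.15 with SMAD3 deletion and 0.05 to 0.11 with HPRT targeting, against 0.11 to 0.12 in the negative control of set A.

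The stalk genes carry the proteins that recruit elongation factors. RPLP0 had 2525, 1934, 2138 and 4196 CPM with SMAD3 deletion and 2906, 2436, 3333 and 2327 CPM with HPRT targeting, against 2499, 2230, 2213 and 2572 CPM in the negative control of set A. In set B it had 1567, 1677, 1414 and 3783 CPM with LDAH deletion and 1572, 2832, 1624 and 3444 CPM with HPRT targeting, against a lowest of 1428, a median of 1583 and a highest of 3702 CPM in the negative control. Its high values were the libraries that stood apart. On the CPM scale RPLP1 and RPLP2 varied less: in LDAH deletion libraries RPLP1 had 2095, 2175, 2021 and 2577 CPM and RPLP2 1278, 1469, 1347 and 1597 CPM. Relative to the summed member counts the order was the reverse in set B. The SD of log2 share there was 0.23 for RPLP0, 0.30 for RPLP1 and 0.42 for RPLP2. No stalk gene was called in any comparison.

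Among the comparisons of groups, the largest differences of the members lay between the negative controls of the 2 sets. The labels name the 2 experiment sets and not how they differed, so the set and any batch cannot be told apart. Of the 85 members 18 were called (edgeR, adjusted p under 0.05). RPS27L alone was higher in set B, beside 5.11% of all 12055 genes called higher, and 17 were lower, beside 4.49% called lower. The median member had a log2 fold change of -0.20 and the median gene 0.02. In 24 members every control of set B lay below every control of set A, and in 2 above, against 6.69% and 5.21% of all genes tested.

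RPS27L had 653 to 914 CPM in the 7 controls of set B, against 327 to 381 CPM in the 4 of set A (log2 fold change 1.14 ± 0.15, adjusted p 2.13e-05). RPS27A had a lowest of 1888, a median of 1945 and a highest of 2970 CPM in set B, against 5588, 5388, 5026 and 5704 CPM in set A (-1.28 ± 0.16, adjusted p 1.21e-05). RPS12 had a lowest of 1392, a median of 1524 and a highest of 2299 CPM in set B, against 4091, 3859, 3677 and 3892 CPM in set A (-1.20 ± 0.16, adjusted p 2e-05). No control of one set reached those of the other for these 3 genes.

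Among the called members RPS23 (-0.97 ± 0.13), which contributes to decoding, RPL36AL (-0.99 ± 0.14) and RPL26 (-0.97 ± 0.15), which also binds the p53 messenger RNA, were next lowest. RPS10-NUDT3 was not called, although it averaged 165.5 CPM in set B and 371.6 CPM in set A, without overlap. RPL36A fell as well (-0.78 ± 0.19), so that both genes of that pair were lower in set B. The other genes called lower were RPL3, RPL4, RPL7A, RPL11, RPL13, RPL13A, RPL14, RPL37, RPS19, RPS24 and RPS28, between -0.65 and -0.40. By class 10 of 43 large subunit genes, 6 of 31 small subunit genes, 2 of 6 paralogs and 0 of 3 stalk genes were called. RPL23A, RPL39L and RPS3 were the next members above 0 by p and were not called. RPL41, the highest member, had a lowest of 4600, a median of 4766 and a highest of 8971 CPM in set B, against 5948, 5839, 5561 and 5966 CPM in set A, with overlap.

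The count of calls depended on which libraries were fitted. Without control 6 or control 7 of set B alone 20 and 21 members were called. Without the 7 libraries that stood apart, both of these among them, 60 members were called, 56 of them lower, beside 28.2% of all genes, and the median was -0.41. With limma voom and sample weights 54 were called, 51 lower, beside 30.2% of all genes. In the edgeR fit of all libraries mitochondrially encoded genes had a median log2 fold change of -0.80, with 7 of 13 called, all lower, beside 4.49% of all genes called lower.

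**Figure D5:**
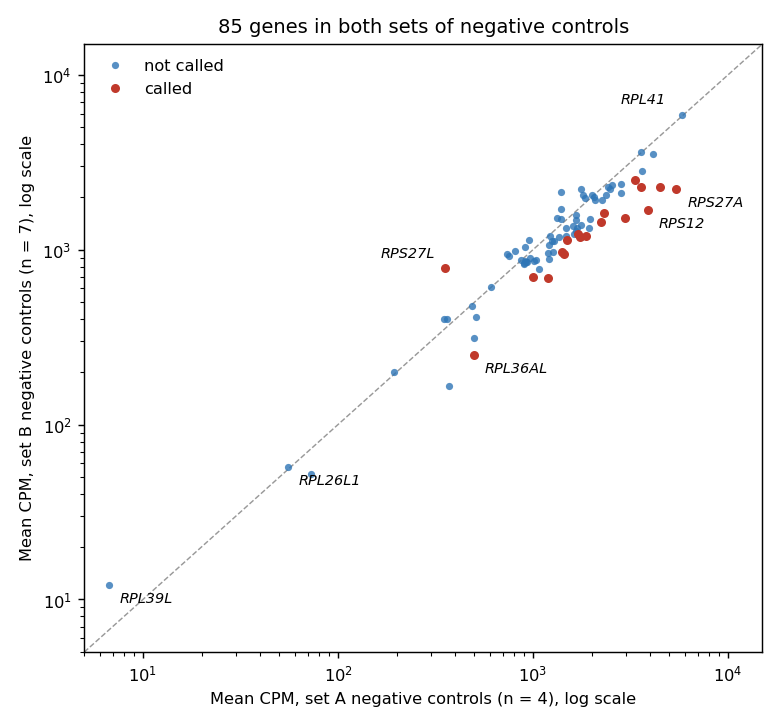
Mean CPM of the 85 members in the negative controls of set B (vertical axis, n = 7) against those of set A (horizontal axis, n = 4), both on log scales; red points were called and the dashed line marks equal levels. RPS27L lies above the line and the other 17 called genes below it.

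The differences between effects were tested in the fit of all 27 libraries. For the SMAD3 deletion effect minus the LDAH deletion effect no member was called, beside 0.0% of 12055 genes, and 3 had an unadjusted p under 0.05, beside 3.64% of genes. That number was 10 without replicate 4 of the LDAH deletion and 0 to 4 without any other 1 library, and 14 without the libraries that stood apart, beside 9.3% of genes. The 3 were RPL23A (0.40 ± 0.18), RPL12 (-0.32 ± 0.14) and RPL28 (-0.40 ± 0.18), each with an adjusted p of 1.0. DESeq2 and limma voom called no member, and 4 and 1 genes in all. Without the libraries that stood apart RPL30 was called (0.77 ± 0.17, adjusted p 0.0327), beside 0.55% of all genes. For the HPRT effect in set B minus that in set A no member was called, beside 0.0% of genes, and 0 had an unadjusted p under 0.05, beside 1.32% of genes. RPL11 (0.20 ± 0.16) had the smallest p, and RPS27L differed by 0.17 ± 0.22. DESeq2 called 2 genes and limma voom 0, with no member in either.

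FAU and RACK1 encode ribosomal proteins but lie outside the naming rule. FAU, which encodes RPS30, had a log2 fold change of 0.04 ± 0.14 with SMAD3 deletion, 0.05 ± 0.25 with LDAH deletion and 0.20 ± 0.13 over both sets of HPRT targeting, against the negative control. RACK1 had 0.06 ± 0.16, -0.32 ± 0.30 and 0.04 ± 0.14 in the same comparisons. Neither was called in any comparison.

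Other genes of ribosome production and translation were read from lists, and in the 9 comparisons within sets and between effects none was called by edgeR. At an unadjusted p under 0.05 the counts of these lists stand beside 6.78% of all genes with SMAD3 deletion, 4.61% with LDAH deletion and 3.19% with HPRT targeting over both sets. Against the negative control 3 of 18 elongation factors and other TOP genes had an unadjusted p under 0.05 with SMAD3 deletion, all lower, led by EEF2, the translocase (-0.33 ± 0.09). None did with LDAH deletion or HPRT targeting over both sets. Of 49 genes of RNA polymerase I and ribosome biogenesis, 2 did with SMAD3 deletion, both lower, GAR1 (-0.36 ± 0.12) and NOB1 (-0.25 ± 0.11), 2 with LDAH deletion and 1 with HPRT targeting. Of 27 initiation factors 0, 1 and 2 did, the 1 being EIF4H (-0.65 ± 0.20) with LDAH deletion.

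Of 13 genes of mTORC1 and the control of TOP genes 0, 1 and 0 did in these 3 comparisons. The 1 was MYC, which drives transcription of ribosome genes, at -1.37 ± 0.33 with LDAH deletion (adjusted p 0.693). Of 78 mitochondrial ribosomal protein genes 3, 5 and 3 did, and their medians were 0.02 with SMAD3 deletion, -0.04 with LDAH deletion and 0.13 with HPRT targeting over both sets, beside -0.02, 0.02 and 0.15 for the members. Of the 13 mitochondrially encoded genes 1, 1 and 0 did.

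Between the negative controls of set B and set A 8 of the 18 elongation factor and TOP genes were called, led by EEF2 (-0.83 ± 0.10) and EEF1D (-0.94 ± 0.14), with a list median of -0.34, beside 9.6% of all genes called in either direction. Of the initiation factors 5 of 27 were called, of the biogenesis genes 4 of 49 and of the mitochondrial ribosomal protein genes 7 of 78, both below the share of all genes, and of the mTORC1 list and the p53 route none of 13 and none of 6. MRPS18C (-0.56 ± 0.13) and MRPL28 (0.89 ± 0.21) led the mitochondrial ribosomal proteins in opposite directions.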

How the data were processed

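The authors deposited a table of whole-number read counts per gene, 14008 genes in 27 libraries, and all columns were used. Per the labels' protocols these were QuantSeq 3' FWD libraries read from one end over 86 cycles. EdgeR 3.24.3 and the hg38 build appear in the submitters' processing notes, and the aligner and counter were not given in the sources used. Ensembl IDs were given symbols from a gene name table (13949), GENCODE 29 (57) or none (2). Counts were tested with edgeR 4.0.16 in R 4.3.3: TMM factors, filterByExpr by group, a two-sided quasi-likelihood test and Benjamini-Hochberg adjustment at 0.05 over all genes tested. Separate fits were made of set A (12 libraries, 11467 genes), of set B (15, 11769), of the 19 HPRT-targeted and negative control libraries with the set as covariate (11836) and of all 27 (12055). All 85 members passed the filter in each. The SE of a log2 fold change is its size over the square root of F. Shares of counts and sums over members were not tested.

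No library was a copy of another: within groups the chi-square per degree of freedom was 3.03 to 78.9. Scripts were tested on simulated data. Libraries stood apart where the median correlation of log2 CPM over genes other than members lay more than 3 scaled median absolute deviations below that of their set. Alternatives were DESeq2 1.42.0, its size factors in edgeR, total counts, scaling without members, limma 3.58.1 voom with sample weights, no filter, a mean CPM of 10, only the compared groups, and leaving out each library or those apart. Reads have no molecular identifiers. Members, lists and tests were chosen with earlier results of these data known. Genes were named by a rule: up to 4 members per direction and comparison with the smallest p, the 5 highest and 5 lowest, the 4 most and 4 least variable per set, paralogs, stalk genes, and up to 2 genes per list. Some genes that this rule picks are not reported here.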

Additional observations from a re-analysis of the deposited data

Results flagged for a closer look

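In 96 groups of 4 to 7 values, 16 quantities in 6 groups, 8 held a library far from the rest of its group by Dixon's ratio at the 95% level, and chance marks about 1 group in 20. Replicate 4 of LDAH deletion was far above the other 3 in the share of counts in ribosomal protein genes (17.39% beside 9.373% to 10.51%), in RPL12 (1129 CPM beside 927 to 955.2), in RPLP0 (3783 CPM beside 1414 to 1677) and in RPS27A (3581 CPM beside 2123 to 2202). In HPRT-targeted replicate 2 of set B, RPLP2 was far below the others (923.8 CPM beside 1284 to 1305). In negative control replicate 7 of set B, RPL26L1 (107.1 CPM beside 36.67 to 63.9) and RPL39L (24.59 CPM beside 6.856 to 12.97) were far above the others. These 3 libraries stood apart over other genes as well. In negative control replicate 1 of set A, which did not stand apart, RPL7L1 was far below the others (171.1 CPM beside 201.7 to 202.7). No difference between the effects in the 2 sets was called for any of these genes.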

How the results depend on the processing

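No paired analysis was made because the libraries of different groups share no number in the labels. The number that ends each title ran from 10 to 13 for SMAD3 deletion and from 26 to 33 for both controls of set A, which alternated. It ran from 50 to 54 for LDAH deletion and from 55 to 67 for the controls of set B. What the numbers mean is not given, and a deletion cannot be told apart from its block of numbers. The number of members called was 0 in 9 of the 10 comparisons with all libraries, so few recomputations could lower it. The number at an unadjusted p under 0.05 moved by over 1.5 times in 24 of 87 recomputations other than single libraries left out, and in 47 of 122 with 1 library left out. The number called moved so in 6 of the 87 and none of the 122. Without the libraries that stood apart it was 7 for LDAH deletion against the negative control, 5 for LDAH deletion and 1 for SMAD3 deletion against HPRT targeting, and 1 for the SMAD3 effect minus the LDAH effect, beside 0 in each with all libraries. Between the negative controls of set B and set A it was 60 without them and 54 with limma voom and sample weights, beside 18. The libraries that stood apart held the highest member shares, so p-values of fits without them may understate the spread of the members. The median log2 fold change of SMAD3 deletion against the negative control was -0.02, and became -0.1328 with limma voom, -0.146 without the libraries that stood apart, and -0.13 to 0.043 with 1 library left out. Against HPRT targeting it was -0.2364 to -0.0611 with 1 library left out. The HPRT median of set A was 0.0705 with limma voom, beside 0.12. Signs turned for genes near 0: RPL3 with HPRT targeting in set B (0.0074 with limma voom, 0.0069 without the libraries that stood apart, -0.0556 to 0.0204 with 1 left out), RPL22L1 over both sets (0.0306, 0.041, and -0.0716 to 0.0288) and RPL39L in set A (-0.3353 to 0.0322 with 1 left out). Without the libraries that stood apart RPL11 and RPL23 turned to -0.0387 and -0.0216 in the HPRT effect of set B minus set A. The cause was not tested. Depth limits RPL39L, whose lowest count was 26.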
